A study of Mus musculus with 4 samples.

Results

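Messenger RNA of the cytosolic and mitochondrial chaperones was compared between stem cell cultures labelled knockdown and cultures labelled control for Eif4a2, a gene of the eIF4A family of RNA helicases. The members are genes whose symbol places them among the HSP70, HSP110, HSP90, HSP60 and HSP10 chaperones, the small heat shock proteins (Hspb), the J-domain proteins (Dnaja, Dnajb, Dnajc) or the subunits of the chaperonin CCT, together with the transcription factor Hsf1. Hspa5 and Dnajb9, of the endoplasmic reticulum (ER), and symbols with a hyphen were left out. This choice by name used no measured value, although earlier results of these data were known when it was made. It gave 79 of the 32592 genes in the table. It also took 11 J-domain and HSP70-like proteins of the ER or of cell membranes, which are described as such below.

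The cells were CCE cells, 1 line of mouse embryonic stem cells of 129/Sv origin, grown without feeders on gelatin in medium with serum and leukemia inhibitory factor. In the KD group the cells carried shRNAs (short hairpin RNAs) against eIF4A2, for which the labels name 2 hairpins, and in the Con group control shRNAs, named shLuc and shEV; which library received which hairpin is not stated. All cultures were infected on day 0, selected for 3 days in 1 µg/mL puromycin and collected on day 4.5, and 1 µg of total RNA was sequenced as poly(A) libraries. There were 2 libraries in each group. The labels do not call them separate cultures, and p-values therefore cover only the spread between these libraries, which may be technical.

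Eif4a2 itself had 753 and 814 normalized counts in the libraries labelled KD, against 531 and 379 in the libraries labelled Con, where a normalized count is a gene's count on the CPM scale of an effective library size. It was 1.74-fold higher in the libraries labelled KD (log2 0.80 with SE 0.15, adjusted p 0.014 by limma), which goes against the label. In what follows, rose and fell describe libraries labelled KD relative to libraries labelled Con, and KD and Con are names taken from the labels. The libraries held between 4604200 and 13681765 reads, of which KD 1 and 2 had 10646302 and 12009899. Con 2 was the shallowest, and the Con pair stood farther apart (median absolute log2 difference between replicates 0.198) than the KD pair (0.0955). The 12 stem cell markers were all detected, and their summed level was 10319.7 and 9975 normalized counts in KD and 13699 and 13092 in Con. Of these 12 markers 5 fell, where 26.6% of all genes tested at 100 or more normalized counts, the range of all 12, did. Of 16 fibroblast markers, 4 had no read in any library (Fap, S100a4, Dcn and Lum). The summed level was 220.0 and 248 in KD and 233 and 258 in Con. Most of that sum was Vim, at 165 and 190 in KD and 199 and 224 in Con. Of the 9 tested markers, 7 had a positive and 2 a negative log2 change, with a median of 0.58. Among these 9, Col1a1 and Pdgfrb were called higher in KD, and no marker was called lower. Of all genes tested 10.5% were called higher and 12.4% lower, with a median log2 change of -0.01. Below 10 normalized counts, the range of all 9 but Vim and Pdgfrb, the shares were 12.8% and 3.17% and the median 0.18. In bulk samples, fewer cells of a type and less RNA per cell cannot be told apart, and the part of either marker list in the results on chaperones was not tested.

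Chaperones bind unfolded segments of other proteins and release them in cycles driven by ATP, so that newly made or damaged proteins can fold instead of aggregating. J-domain proteins bring clients to HSP70, nucleotide exchange factors of the HSP110 family reset HSP70, and HSP90 finishes the folding of kinases and hormone receptors. CCT (also called TRiC) is a double-ring chaperonin that encloses actin, tubulin and other clients, and HSP60 with its lid HSP10 does the same in the mitochondrial matrix. Many of these genes are targets of HSF1, which binds heat shock elements (repeats of the letters GAA in alternating orientation) in their promoters after stress. Embryonic stem cells are known for high levels of cytosolic chaperones.

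Promoter windows are shown because heat shock elements are the sequence feature for which these genes are best known. RefSeq windows (build GRCm38.p6, 250 bases before to 50 after a start site) were available for 63 of the 79 members. Members without a window, which were not searched, include Hsf1, Hsp90aa1, Hsp90ab1, Hspa8, Hspa9, Hspa13, Cct4, Dnajc11, Dnajc22 and Hspb2. The search covered an element of 3 units (GAA, NN, TTC, NN and GAA in a row, where N is any base) and elements of 2 units (GAA, NN and TTC, or TTC, NN and GAA), on both strands, with overlap allowed, so that a longer element also counts as a shorter one. The window of Hsph1, the member with the largest fall, had a 3-unit match just after the start site and a 2-unit match before it. The printed window of Hspd1, which encodes HSP60 and also fell, had overlapping 3-unit matches. Its other window (chr1:55088194-55088493) had no match of either length. Dnajb6, which was not called, had a 3-unit match as well, and Hspa1a, an inducible HSP70 that rose, had a 2-unit match. The sequences read 5′ to 3′ on the strand of the gene, and capitals mark every match of either length. Where a gene had several windows, the one with the lowest start coordinate is printed, and a match in any of them was counted for the gene.
Hsph1 (chr5:149636266-149636565, minus strand): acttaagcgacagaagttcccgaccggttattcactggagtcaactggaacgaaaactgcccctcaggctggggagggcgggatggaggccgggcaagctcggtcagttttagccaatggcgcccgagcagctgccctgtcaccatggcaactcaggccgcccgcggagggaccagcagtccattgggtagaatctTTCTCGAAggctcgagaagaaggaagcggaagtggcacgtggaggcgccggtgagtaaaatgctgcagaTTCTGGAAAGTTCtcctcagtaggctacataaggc
Hspd1 (chr1:55087883-55088182, minus strand): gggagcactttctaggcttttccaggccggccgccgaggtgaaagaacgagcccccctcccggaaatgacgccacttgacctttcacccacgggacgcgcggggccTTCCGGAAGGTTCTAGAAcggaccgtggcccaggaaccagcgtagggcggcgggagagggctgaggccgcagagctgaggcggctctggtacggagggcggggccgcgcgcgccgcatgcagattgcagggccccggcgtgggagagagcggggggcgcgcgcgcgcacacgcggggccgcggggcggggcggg
Dnajb6 (chr5:29735648-29735947, plus strand): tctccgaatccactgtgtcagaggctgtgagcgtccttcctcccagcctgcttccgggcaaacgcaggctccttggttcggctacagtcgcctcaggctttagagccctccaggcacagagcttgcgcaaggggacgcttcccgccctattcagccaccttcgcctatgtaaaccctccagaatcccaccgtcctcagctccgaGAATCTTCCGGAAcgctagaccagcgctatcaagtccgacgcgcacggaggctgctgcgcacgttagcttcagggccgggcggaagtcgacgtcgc
Hspa1a (chr17:34972107-34972406, minus strand): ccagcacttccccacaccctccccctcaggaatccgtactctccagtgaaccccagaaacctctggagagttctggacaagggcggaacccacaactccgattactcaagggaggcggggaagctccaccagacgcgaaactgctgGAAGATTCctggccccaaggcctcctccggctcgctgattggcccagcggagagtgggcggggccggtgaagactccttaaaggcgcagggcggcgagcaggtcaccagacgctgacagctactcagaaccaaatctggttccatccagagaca
A 3-unit match was present in 4 of the 63 members (6.35%), which were Hsph1, Hspd1, Hspe1 and Dnajb6, and in 179 of 27025 genes with a window (0.662%). The windows of Hspd1 and Hspe1, which lie head to head, overlap, so that both contain the same letters. A 2-unit match was found in 20 of 63 members (31.7%), against 17% of all genes. The shorter letters CCAAT, searched in the same way, were in 26 of 63 members (41.3%) and in 41.1% of all genes. Of the 4 members with a 3-unit match, Hsph1 and Hspd1 fell, and Hspe1 and Dnajb6 did not pass the test. A match is a description of the letters and not of a bound site, and the absence of a match says only that these letters are not in the window.

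Of the 79 members, 71 had enough reads to be tested, 22 fell and 4 rose. Over all 14890 genes tested, 12.4% fell and 10.5% rose, 23% in either direction, at the same threshold (limma on log2 of the normalized count plus 1, Benjamini-Hochberg adjusted p below 0.05 over all genes tested). The median log2 change of the 71 members was -0.13, with 49 below and 22 above 0, beside a median of -0.01 over all genes tested. The KD libraries both lay below the Con libraries for 37 members (34.6% of all genes) and both above them for 14 (32.1% of all genes). Summed over all 79 members, the level was 15609 and 15162 normalized counts in KD and 17896 and 18737 in Con, which is 16.0% lower in KD. Without Hsp90ab1, the member with the most counts, the sums were 7877 and 7638 in KD and 9404 and 9996 in Con, which is 20% lower. Calls rest on a spread shared across genes, since an exact permutation test of 2 against 2 libraries cannot give a p below 0.333. The number of calls depended on which library was left out, for the members and for all genes tested alike. Fewer calls were made without either KD library and more without either Con library. At an unadjusted limma p below 0.05, 8 members were higher with all libraries, as were 2763 of the 14890 genes tested. Hsph1, Cct4, Dnajb5, Dnajc6, Hspd1 and Hspa13 passed without KD 1, and Hsph1, Dnaja2, Dnajb5 and Hspa13 passed without KD 2. With library size as the sole scaling, 15 members fell and 6 rose. Of all genes tested 996 then fell and 2152 rose, and their median shifted to 0.10.

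**Figure D1:**
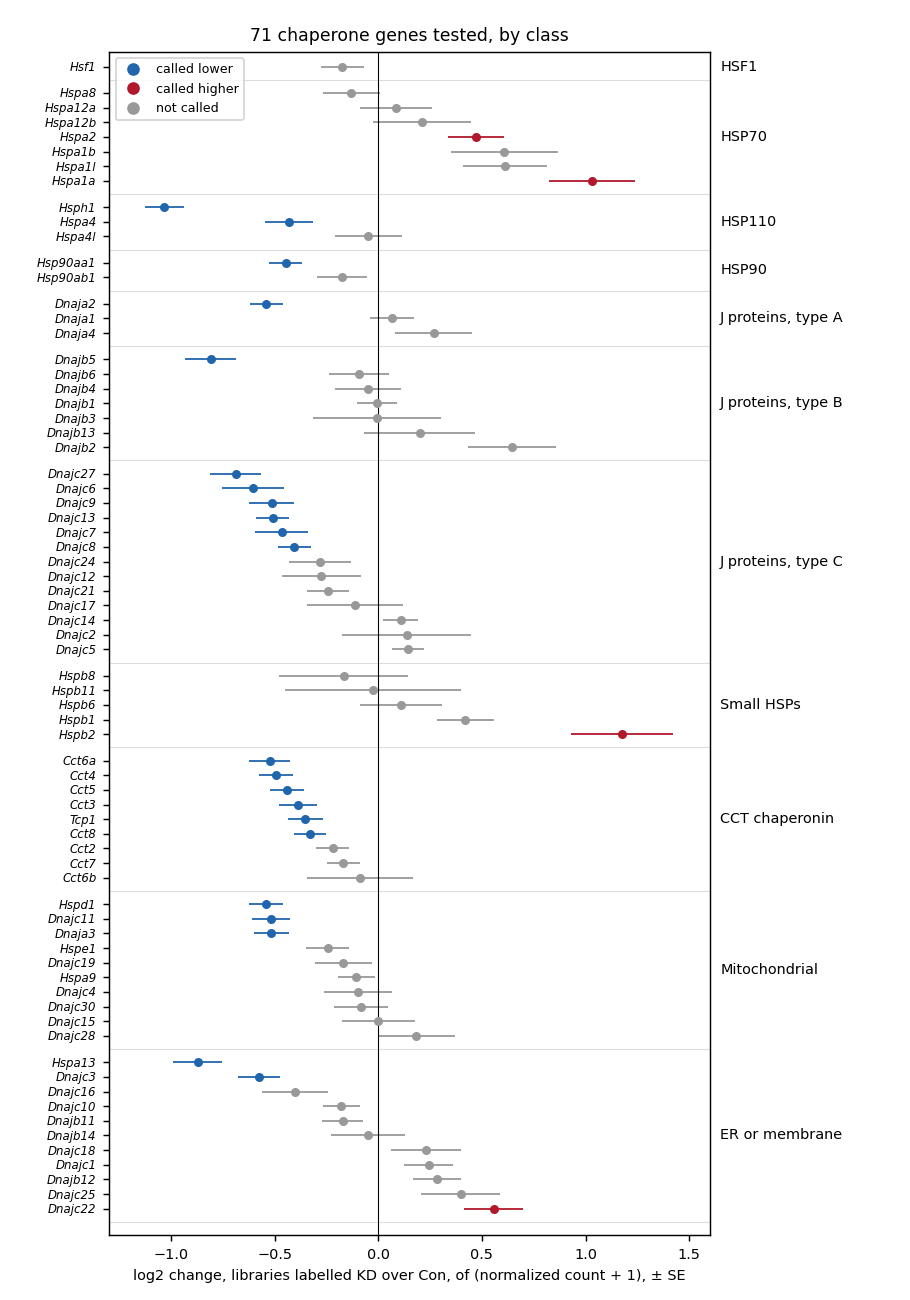
Log2 change (KD over Con, horizontal axis) of the 71 chaperone genes tested, by class (rows), each point 1 gene with a bar of 1 SE and the calls marked by colour. CCT subunits all lie below 0, from -0.52 to -0.09, and the HSP70 class has a median of 0.47. The median of all genes tested is -0.01, with 0.18 below 10 normalized counts and -0.14 at 100 or more.

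The calls were spread unevenly over expression level and base composition, 2 properties that the choice of members did not use. Among the 22 members with a mean of at least 100 normalized counts, 15 fell and the other 7 did not pass. In that range 26.6% of all genes fell and 6.54% rose, and the median log2 change was -0.42 for the members and -0.14 for all genes. Of the 34 members between 10 and 100 normalized counts, 7 fell and 3 rose, where 13.4% and 10.4% of all genes did. Among the 15 below 10 normalized counts, 1 rose, where 12.8% of all genes rose and 3.17% fell. The 22 members that fell had transcripts with a median GC content of 47.2% (39.8 to 53.9%), the 4 that rose 56.3% (52.7 to 59.6%) and those not called 49.8%. The part of expression level in the calls was not tested. With all genes tested put in 5 equal groups by GC content, 19.3% fell and 4.43% rose in the group of lowest GC, and 5.74% fell and 19.1% rose in that of highest GC. After a correction for GC content within each library, 19 of the 22 members fell and 3 of the 4 rose. Hspa4, Tcp1, Cct8 and Hspa2 no longer passed, with adjusted p-values of 0.0847, 0.0649, 0.121 and 0.0596 by limma.

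**Figure D2:**
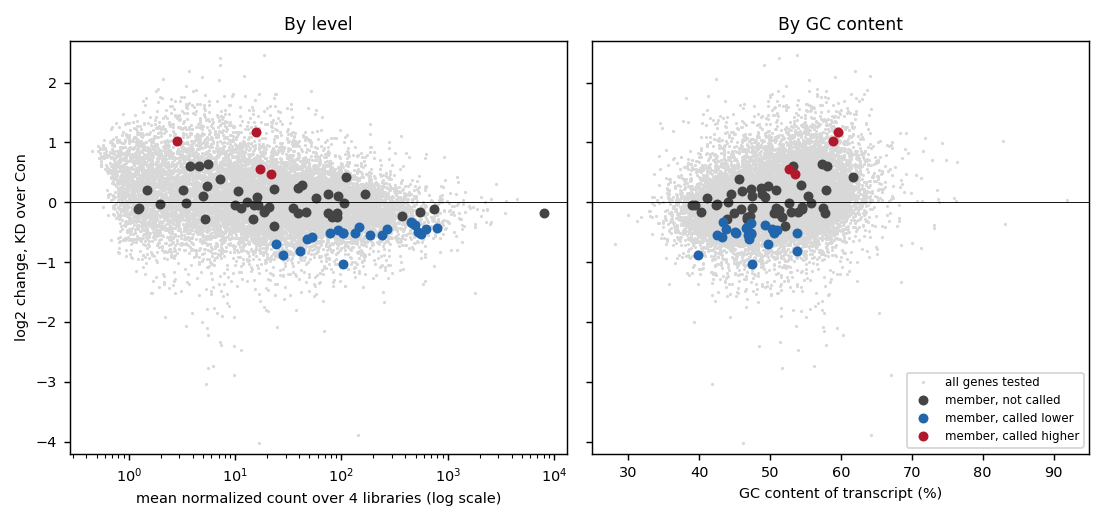
Log2 change of the tested members against their mean level in normalized counts (log axis) and against the GC content of their transcripts in percent, with calls marked by colour. Of the 22 members that fell, 15 lie at 100 or more normalized counts, and all 22 at 39.8 to 53.9% GC, and the 4 that rose at 52.7 to 59.6% GC.

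Hsf1, which encodes the heat shock transcription factor, had 37.0 and 36.5 normalized counts in the libraries labelled KD, against 40.7 and 42.5 in the libraries labelled Con. The Con libraries were higher in both replicates, but the difference did not pass (log2 -0.17 with SE 0.10, adjusted p 0.255 by limma).

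In the HSP70 class, whose members bind short hydrophobic stretches of client proteins, 2 of 7 rose. The other 5 did not pass, with log2 changes between -0.13 and 0.61. Of all genes tested 10.5% rose. The share was 12.8% below 10 normalized counts, where Hspa1a, Hspa1b, Hspa1l and Hspa12b lie. In the group of highest GC, which holds Hspa1a, Hspa1b and Hspa12b, it was 19.1%. Hspa1a, the inducible HSP70, had 4.35 and 3.97 normalized counts in the libraries labelled KD, against 1.47 and 1.58 in the libraries labelled Con (reads: 49 and 51 in KD and 20 and 7 in Con). It rose 2.04-fold (log2 1.03 with SE 0.21, adjusted p 0.0167 by limma), at few reads. Its log2 change was 0.66 with a pseudocount of 3, 1.46 by edgeR and 1.48 by DESeq2, so the size of the rise depends on the scale. Its transcript overlaps the predicted gene Gm20481 on the other strand. Hspa1b, its nearly identical neighbour, had 5.50 and 5.84 normalized counts in the libraries labelled KD, against 4.49 and 2.49 in the libraries labelled Con. The groups did not overlap, but the change did not pass (log2 0.61 with SE 0.26, adjusted p 0.13 by limma). Because reads of 2 such copies may be split between them, their sum is also given, at 9.85 and 9.81 normalized counts in KD and 5.96 and 4.07 in Con. Hspa2, an HSP70 needed for sperm formation in the mouse, had 25.2 and 25.2 normalized counts in the libraries labelled KD, against 19.2 and 16.7 in the libraries labelled Con. It rose 1.38-fold (log2 0.47 with SE 0.13, adjusted p 0.0457 by limma). The constitutive HSP70, Hspa8, had 17.6 and 19.2 normalized counts in the libraries labelled KD, against 21.2 and 19.2 in the libraries labelled Con. Both KD values lay below both Con values, by a small gap, and the change did not pass (log2 -0.13 with SE 0.14, adjusted p 0.523 by limma). Per kilobase of transcript its level was 7.67 in KD and 8.44 in Con, and since Hspa8 has many near-identical copies in the genome this value is uncertain. Neither call in this class was made without KD 1 (limma adjusted p between 0.147 and 0.301), without KD 2 (between 0.138 and 0.35) or by DESeq2 (between 0.0736 and 0.136).

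Of the 3 genes of the HSP110 class, the nucleotide exchange factors of HSP70, 2 fell, where 12.4% of all genes tested did. Hsph1 (chr5:149614287-149636376, minus strand, ENSMUSG00000029657, GRCm38), which encodes HSP105, had 66.2 and 69.1 normalized counts in the libraries labelled KD, against 132 and 148 in the libraries labelled Con. The gap between the groups was wider than the spread within either, and the means were 67.7 ± 2.06 in the libraries labelled KD and 139.7 ± 11.0 in those labelled Con (SD, n = 2 each). It fell 2.05-fold (log2 -1.03 with SE 0.09, adjusted p 0.00256 by limma) and was called with each library left out in turn. Hspa4, which encodes the related APG-2, had 692 and 659.7 normalized counts in the libraries labelled KD, against 819 and 1019 in the libraries labelled Con. It fell 1.35-fold (log2 -0.43 with SE 0.12, adjusted p 0.0375 by limma). Without KD 1 and without KD 2 its limma adjusted p was 0.129 and 0.244, and without Con 2 its log2 change was -0.28. Hspa4l, the third, had 9.94 and 9.66 normalized counts in the libraries labelled KD, against 9.71 and 10.6 in the libraries labelled Con, with overlapping groups (log2 -0.05 with SE 0.16, adjusted p 0.853 by limma).

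HSP90 is made in the cytosol from Hsp90aa1, the more stress-inducible gene, and Hsp90ab1, the constitutive one. Hsp90aa1 had 238 and 221 normalized counts in the libraries labelled KD, against 316 and 310.2 in the libraries labelled Con. The groups were apart, and it fell 1.36-fold (log2 -0.45 with SE 0.08, adjusted p 0.0119 by limma). Its limma adjusted p was 0.0612 without KD 1 and 0.185 without KD 2. Hsp90ab1 had 7732 and 7523 normalized counts in the libraries labelled KD, against 8492 and 8741 in the libraries labelled Con. Both KD values lay below both Con values, but the change did not pass (log2 -0.18 with SE 0.12, adjusted p 0.323 by limma). It passed without Con 1, with a limma adjusted p of 0.00426, and without Con 2, with 0.0434. The authors' deposited table gives it the same log2 change of -0.18 with an adjusted p of 8.23e-10. Per kilobase of transcript, Hsp90ab1 stood at 3027 in KD and 3419 in Con, and Hsp90aa1 at 69.9 in KD and 95.4 in Con.

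**Figure D3:**
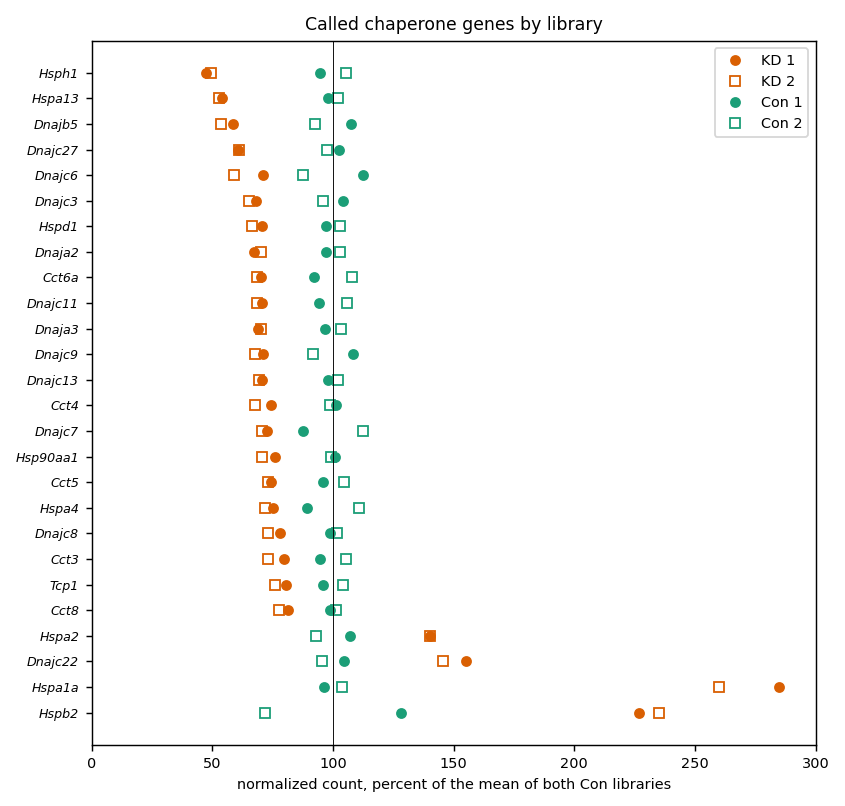
Level of each of the 26 called members in the 4 libraries, as a percentage of the mean of the 2 libraries labelled Con. The members that fell lie between 47.4 and 81.4% in KD and between 87.4 and 113% in Con, and those that rose between 140.3 and 285% in KD and between 71.7 and 128% in Con.

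The CCT chaperonin is built from 8 different subunits, and 6 of their genes fell. Over all genes tested 12.4% fell, and 26.6% of those at 100 or more normalized counts, the range in which all 8 lie. The set also names Cct6b, a testis form, and Cct8l1, which was not tested. Cct6a had 464 and 452 normalized counts in the libraries labelled KD, against 609 and 714 in the libraries labelled Con, and fell 1.44-fold (log2 -0.52 with SE 0.10, adjusted p 0.0134 by limma). Cct4 had 459.7 and 419.5 normalized counts in the libraries labelled KD, against 627 and 611 in the libraries labelled Con, and fell 1.41-fold (log2 -0.49 with SE 0.08, adjusted p 0.0103 by limma). Cct5 had 538 and 531 normalized counts in the libraries labelled KD, against 695 and 758 in the libraries labelled Con, and fell 1.36-fold (log2 -0.44 with SE 0.08, adjusted p 0.0139 by limma). In all 8 subunits the lower Con value exceeded the higher KD value by more than either group's own spread. Cct3 had 446 and 409.8 normalized counts in the libraries labelled KD, against 530.3 and 589 in the libraries labelled Con, a fall of 1.31-fold (log2 -0.39 with SE 0.09, adjusted p 0.0265 by limma). Tcp1, which encodes the first subunit, had 422 and 397 normalized counts in the libraries labelled KD, against 501 and 546 in the libraries labelled Con, a fall of 1.28-fold (log2 -0.35 with SE 0.08, adjusted p 0.0281 by limma). Cct8 had 410.1 and 392 normalized counts in the libraries labelled KD, against 498 and 509.8 in the libraries labelled Con, a fall of 1.26-fold (log2 -0.33 with SE 0.08, adjusted p 0.0265 by limma). The remaining subunits were also lower in both KD libraries but did not pass. Cct2 had 344 and 343 normalized counts in the libraries labelled KD, against 415 and 387 in the libraries labelled Con (log2 -0.22 with SE 0.08, adjusted p 0.0837 by limma). Cct7 had 532 and 505 normalized counts in the libraries labelled KD, against 576 and 589.7 in the libraries labelled Con (log2 -0.17 with SE 0.08, adjusted p 0.16 by limma). All 8 subunits thus had KD values below Con values, as 34.6% of all genes tested did, between 67.8 and 91.2% of the Con mean in KD and between 92.0 and 108% in Con.

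The 8 subunits summed to 3614 and 3449.7 normalized counts in KD and 4451 and 4704 in Con, 22.8% lower in KD. Since the complex holds its subunits in equal number, levels were also set side by side per kilobase of transcript. Cct5 was the highest, at 288 in KD and 392 in Con, followed in Con by Cct3 at 216 in KD and 283 in Con and Cct6a at 187 in KD and 269.6 in Con. Tcp1 stood at 167 in KD and 214 in Con, Cct8 at 167 in KD and 210.4 in Con and Cct2 at 175 in KD and 204 in Con. Cct6b had 1.51 and 0.857 normalized counts in KD and 1.47 and 1.13 in Con (log2 -0.09 with SE 0.25, adjusted p 0.826 by limma), and its log2 change was 0.13 without KD 2 and 0.02 without Con 1. Without KD 1 only Cct4 of the 6 called subunits passed (limma adjusted p between 0.0439 and 0.193), and without KD 2 none of them did (between 0.104 and 0.347), with 3 subunits at an unadjusted p below 0.05. With library size as the sole scaling 3 passed, namely Cct6a, Cct4 and Cct5, and after the GC correction 4, these and Cct3. Cct8 had a log2 change of -0.21 and -0.21 under those 2 settings, and Tcp1 had -0.23 with library size alone. Exons of Cct6a overlap those of Psph on the other strand over 452 bases, Tcp1 those of Acat3 over 571, Cct8 those of Usp16 over 192 and Cct7 those of Pradc1 over 214. The strand setting of the counting is not given in the sources used here, so reads from these stretches cannot be assigned.

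**Figure D4:**
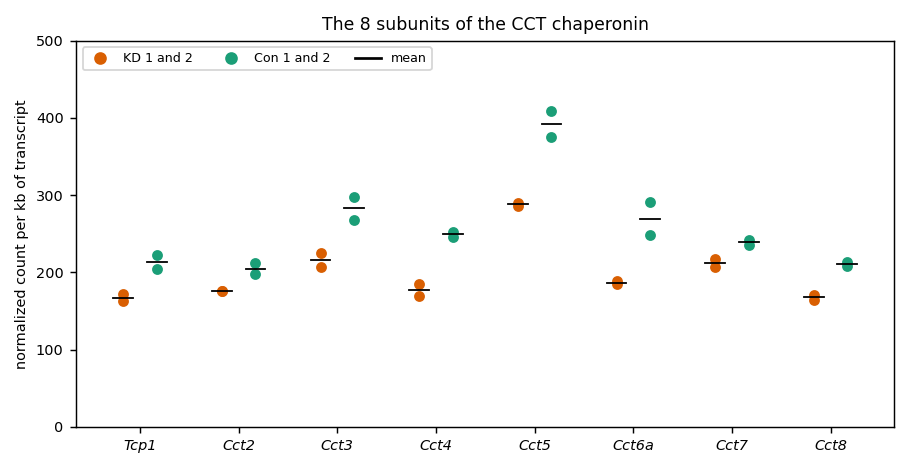
Normalized counts per kilobase of transcript (vertical axis) of the 8 CCT subunit genes (horizontal axis). Each point is 1 of the 2 libraries labelled KD or the 2 labelled Con, and a line marks each group's mean. In every subunit both KD points lie below both Con points.

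J-domain proteins of the mitochondria, the ER and membranes are given further below. Among the rest, 1 of 3 tested Dnaja genes, 1 of 7 Dnajb genes and 6 of 13 Dnajc genes fell. The others lay between -0.28 and 0.65 in log2 change. Of all genes tested 12.4% fell, with 13.4% between 10 and 100 normalized counts and 26.6% at 100 or more. In the Dnaja group, the general co-chaperones of HSP70, Dnaja2 had 194 and 202 normalized counts in the libraries labelled KD, against 281 and 297 in the libraries labelled Con. It fell 1.46-fold (log2 -0.54 with SE 0.08, adjusted p 0.00711 by limma). Dnaja1, the other main member, had 55.8 and 62.1 normalized counts in the libraries labelled KD, against 53.4 and 59.1 in the libraries labelled Con, with overlapping groups and no change beyond the spread (log2 0.07 with SE 0.11, adjusted p 0.681 by limma). In the Dnajb group, Dnajb5 had 30.6 and 27.9 normalized counts in the libraries labelled KD, against 56.1 and 48.2 in the libraries labelled Con, a separation of the groups by more than their own spread. It fell 1.75-fold (log2 -0.81 with SE 0.12, adjusted p 0.00761 by limma). Dnajb1, the heat-inducible HSP40, had 109.9 and 101 normalized counts in the libraries labelled KD, against 112 and 99.8 in the libraries labelled Con, with interleaved groups (log2 -0.01 with SE 0.10, adjusted p 0.961 by limma). Its sign was turned by leaving out KD 2 or Con 1, by the 3 other scalings and by DESeq2, each time without a call. Dnajb6, which keeps aggregation-prone proteins soluble and whose promoter window is printed above, had 33.3 and 34.3 normalized counts in the libraries labelled KD, against 31.6 and 41.2 in the libraries labelled Con (log2 -0.09 with SE 0.14, adjusted p 0.674 by limma).

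Members of the Dnajc group have a J domain attached to otherwise unrelated proteins. Dnajc27, a small GTPase with a J domain, had 18.1 and 18.3 normalized counts in the libraries labelled KD, against 30.8 and 29.2 in the libraries labelled Con, and fell 1.61-fold (log2 -0.69 with SE 0.12, adjusted p 0.0119 by limma). Dnajc6, which encodes auxilin, the factor that uncoats clathrin vesicles, had 41.0 and 34.0 normalized counts in the libraries labelled KD, against 65.0 and 50.7 in the libraries labelled Con, and fell 1.52-fold (log2 -0.61 with SE 0.15, adjusted p 0.0314 by limma). Dnajc13, of endosomal sorting, had 112 and 109.7 normalized counts in the libraries labelled KD, against 155 and 162 in the libraries labelled Con, and fell 1.42-fold (log2 -0.51 with SE 0.08, adjusted p 0.00842 by limma). In all 3 genes both KD values lay below both Con values. Dnajc9, a chaperone of histones H3 and H4, had 65.8 and 62.8 normalized counts in the libraries labelled KD, against 100.5 and 84.9 in the libraries labelled Con, and fell 1.43-fold (log2 -0.52 with SE 0.11, adjusted p 0.0184 by limma). Dnajc7, which binds both HSP70 and HSP90, had 78.1 and 75.9 normalized counts in the libraries labelled KD, against 94.2 and 121 in the libraries labelled Con, and fell 1.38-fold (log2 -0.47 with SE 0.13, adjusted p 0.0388 by limma). Dnajc8, a protein of the spliceosome, had 131 and 122 normalized counts in the libraries labelled KD, against 165 and 169.9 in the libraries labelled Con, and fell 1.32-fold (log2 -0.41 with SE 0.08, adjusted p 0.0166 by limma). Here too the groups were apart, although the Con libraries of Dnajc7 differed from each other by more than the KD libraries did, and without Con 2 its log2 change was -0.29. Dnajc2, the J protein that sits on ribosomes, had 75.0 and 77.0 normalized counts in the libraries labelled KD, against 46.4 and 103 in the libraries labelled Con. The Con libraries lay on either side of the KD pair, and no change was called (log2 0.14 with SE 0.31, adjusted p 0.782 by limma); its values are given because of this split, seen in the data. Of the 8 called genes in the Dnaja, Dnajb and Dnajc groups, Dnajb5 and Dnajc6 passed without KD 1 and Dnaja2 and Dnajb5 without KD 2. The log2 changes of the 8 then lay between -0.88 and -0.45 and between -0.74 and -0.36. All 8 passed after the GC correction. Exons of Dnajc7 overlap those of Cnp and Nkiras2, and exons of Dnajc13 those of Gm37563, all on the other strand.

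Among 10 mitochondrial members, 3 fell and 9 had a negative log2 change. Of all genes tested 12.4% fell, 26.6% of those at 100 or more normalized counts, and 7625 of 14890 had a negative log2 change. Hspd1, which encodes HSP60, had 156 and 147 normalized counts in the libraries labelled KD, against 215 and 228 in the libraries labelled Con. It fell 1.46-fold (log2 -0.54 with SE 0.08, adjusted p 0.00761 by limma). Hspe1, which encodes its lid HSP10 and is transcribed from the same bidirectional promoter, had 72.8 and 76.4 normalized counts in the libraries labelled KD, against 82.1 and 95.5 in the libraries labelled Con. The groups were apart, but the change did not pass (log2 -0.24 with SE 0.10, adjusted p 0.127 by limma). Hspa9, which encodes mortalin, the HSP70 of the matrix, had 732 and 714 normalized counts in the libraries labelled KD, against 735 and 825 in the libraries labelled Con, also apart and not called (log2 -0.11 with SE 0.09, adjusted p 0.419 by limma). Dnaja3, its J-protein partner, had 84.3 and 85.7 normalized counts in the libraries labelled KD, against 118 and 126 in the libraries labelled Con, and fell 1.43-fold (log2 -0.52 with SE 0.08, adjusted p 0.00929 by limma). Dnajc11, a protein of the contact sites of the inner membrane, had 86.7 and 84.0 normalized counts in the libraries labelled KD, against 116 and 130.1 in the libraries labelled Con, and fell 1.43-fold (log2 -0.52 with SE 0.09, adjusted p 0.0117 by limma). The other 5, among them Dnajc15 and Dnajc19 of the import motor, lay between -0.17 and 0.18. Without KD 1 only Hspd1 passed (limma adjusted p between 0.0305 and 0.0731 over the 3), and without KD 2 the 3 values lay between 0.0839 and 0.11. Exons of Hspd1 and Hspe1 overlap by 112 bases, and those of Dnaja3 overlap Coro7 and Vasn.

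Pseudogene rows, which carry a hyphen in their symbol and are not members, touch these values. Hspd1-ps3 had 615 and 599 normalized counts in the libraries labelled KD, against 859 and 945 in the libraries labelled Con, and fell (log2 change -0.57, limma adjusted p 0.00782). Hspa9-ps1 was not called (log2 change -0.02, limma adjusted p 0.873). Cct3-ps1 had 57.8 and 51.1 normalized counts in KD and 74.3 and 70.6 in Con and fell (log2 change -0.41, limma adjusted p 0.0316). Dnajc19-ps had 30.2 and 31.0 normalized counts in KD and 43.1 and 51.8 in Con and fell (log2 change -0.61, limma adjusted p 0.0168). Reads of near-identical copies may be split between a gene and its pseudogene, so the levels of Hspd1, Hspa9, Cct3 and Dnajc19 are uncertain.

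The 11 members of the ER and of membranes, which assist secretory proteins, had 2 genes that fell and 1 that rose. Their median log2 change was -0.05. Of all genes tested 12.4% fell and 10.5% rose, with a median of -0.01. Hspa13, an HSP70-like ATPase of the microsomes, had 19.9 and 19.5 normalized counts in the libraries labelled KD, against 36.1 and 37.8 in the libraries labelled Con. The groups were far apart for their spread, and it fell 1.83-fold (log2 -0.87 with SE 0.12, adjusted p 0.00571 by limma). This call stood with each library left out in turn. Dnajc3, a lumenal co-chaperone known as an inhibitor of stress kinases, had 43.0 and 41.0 normalized counts in the libraries labelled KD, against 65.9 and 60.4 in the libraries labelled Con, and fell 1.49-fold (log2 -0.58 with SE 0.10, adjusted p 0.0112 by limma). Dnajc22, a membrane J protein, had 21.3 and 20 normalized counts in the libraries labelled KD, against 14.4 and 13.1 in the libraries labelled Con, and rose 1.47-fold (log2 0.56 with SE 0.14, adjusted p 0.0331 by limma). The other 8 lay between -0.40 and 0.40 in log2 change. Without KD 1 and without KD 2 neither Dnajc3 (limma adjusted p 0.0585 and 0.12) nor Dnajc22 (0.293 and 0.254) passed.

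Small heat shock proteins hold unfolded clients without using ATP. Of the 5 tested genes with an Hspb symbol 1 rose, where 10.5% of all genes tested did. Hspb2 had 21.5 and 22.3 normalized counts in the libraries labelled KD, against 12.1 and 6.79 in the libraries labelled Con. It rose 2.26-fold (log2 1.18 with SE 0.25, adjusted p 0.0189 by limma), with a limma adjusted p of 0.0536 without KD 2. Its exons share 252 bases with Cryab, the neighbouring small heat shock gene on the other strand, which the choice by symbol did not take. Cryab had 15.1 and 20.2 normalized counts in the libraries labelled KD, against 9.64 and 7.69 in the libraries labelled Con, a rise of 1.92-fold (log2 0.94 with SE 0.20, adjusted p 0.0194 by limma), and reads of the shared stretch cannot be told apart. Hspb1, the most studied of the family, had 119 and 132 normalized counts in the libraries labelled KD, against 80.8 and 107 in the libraries labelled Con, with the groups apart and no call (log2 0.42 with SE 0.14, adjusted p 0.0688 by limma). Hspb8, a partner of the autophagy factor Bag3, had 45.5 and 38.0 normalized counts in the libraries labelled KD, against 68.6 and 31.9 in the libraries labelled Con, with Con libraries on either side of the KD pair (log2 -0.17 with SE 0.31, adjusted p 0.726 by limma). The 8 members not tested in the whole set were low throughout: Hspb3, Hspb7, Hspb9, Dnajb7, Dnajb8 and Cct8l1 had at most 9 reads in any library, and Dnajc5b and Dnajc5g had no read in any, where 3 reads correspond to between 0.221 and 0.679 normalized counts.

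Other genes of the same pathways were taken from lists of partners written for this comparison. Of 30 co-chaperones of HSP70 and HSP90, 4 fell, 1 rose, and 27 had a negative log2 change, with a median of -0.20. Over all genes tested 12.4% fell, 10.5% rose and 7625 of 14890 had a negative log2 change. At the adjusted threshold and with all libraries, the share of the list that fell is thus near that of all genes. Sugt1, an HSP90 adaptor, had 48.7 and 49.0 normalized counts in the libraries labelled KD, against 68.9 and 74.2 in the libraries labelled Con, and fell (log2 -0.54 with SE 0.09, adjusted p 0.0112 by limma). Chordc1, another HSP90 partner, had 79.4 and 87.4 normalized counts in the libraries labelled KD, against 114 and 119 in the libraries labelled Con, and fell (log2 -0.48 with SE 0.09, adjusted p 0.0135 by limma). St13, which binds HSP70, had 385 and 366 normalized counts in the libraries labelled KD, against 497 and 459 in the libraries labelled Con, and fell (log2 -0.35 with SE 0.08, adjusted p 0.0281 by limma). In these 3 genes both KD values lay below both Con values. Ppp5c, an HSP90-bound phosphatase, had 149 and 149.9 normalized counts in the libraries labelled KD, against 110.0 and 115 in the libraries labelled Con, and rose (log2 0.40 with SE 0.08, adjusted p 0.0156 by limma). None of these 4 was called without KD 1 or without KD 2. Their log2 changes then ran from -0.54 to 0.41 and from -0.55 to 0.40. The list had more falls without either Con library, as all genes tested did. After the GC correction Sugt1 and Ppp5c passed, and Chordc1 (log2 change -0.29, limma adjusted p 0.0976) and St13 (-0.23, limma adjusted p 0.0859) did not. St13 also missed the threshold with library size as the sole scaling (log2 change -0.22) and with upper-quartile scaling. At an unadjusted limma p below 0.05, 12 of the 30 genes of the list were lower with all libraries, as were 3010 of the 14890 genes tested.

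Among 17 genes of prefoldin and of other CCT partners, 3 fell and 1 rose, with a median log2 change of -0.13; over all genes 12.4% fell and 10.5% rose. Pdcl3, a phosducin-like cofactor of CCT, had 28.1 and 28.6 normalized counts in the libraries labelled KD, against 53.7 and 41.0 in the libraries labelled Con, and fell (log2 -0.71 with SE 0.15, adjusted p 0.0175 by limma). The prefoldin subunits Vbp1 (log2 -0.62 with SE 0.17, adjusted p 0.0372 by limma) and Pfdn6 (log2 -0.50 with SE 0.11, adjusted p 0.0227 by limma) fell, and Pdrg1, a prefoldin-like protein, rose (log2 0.79 with SE 0.14, adjusted p 0.011 by limma). Without KD 1 all but Pdcl3 passed. Without KD 2 none of the 4 passed, with limma adjusted p-values between 0.0691 and 0.187, and without Con 1 the log2 change of Vbp1 was -0.37. In 16 mitochondrial import and quality control genes, Yme1l1, an inner membrane protease, fell (log2 -0.32 with SE 0.07, adjusted p 0.026 by limma) and the median was -0.03. Its log2 change was -0.15 after the GC correction (limma adjusted p 0.278) and -0.20 with library size as the sole scaling (0.0854). It was not called by DESeq2 (adjusted p 0.0573), and its limma adjusted p was 0.235 without KD 1 and 0.307 without KD 2. Of 6 relatives and partners of HSF1, Hsf2bp fell (log2 -0.90 with SE 0.09, adjusted p 0.00368 by limma), and Hsf5 (log2 1.47 with SE 0.27, adjusted p 0.0126 by limma) and Hsbp1, a small HSF-binding protein (log2 0.40 with SE 0.11, adjusted p 0.0379 by limma), rose. Without KD 1 Hsf2bp and Hsf5 passed, and without KD 2 only Hsf2bp of these 3 did. Hsf5 had 4.62 and 4.98 normalized counts in the libraries labelled KD, against 1.62 and 0.679 in the libraries labelled Con, a level near that of a few reads in Con, and its log2 change was 0.92 with a pseudocount of 3.

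The authors' deposited table, which holds their own comparison of the same libraries, called 20 of the tested members lower and 6 higher at an adjusted p below 0.05. Over all genes tested, its shares were 12% lower and 12.2% higher. Of these calls, 19 lower and 4 higher were shared with limma. Cct3, Tcp1 and Cct8 were lower by limma alone, Hsp90ab1 was lower in the authors' table alone, and Dnajb2 and Hspb1 were higher in the authors' table alone. The values of Dnajb2, a J protein best known from neurons, were 7.64 and 6.39 normalized counts in KD and 3.53 and 4.75 in Con (log2 0.65 with SE 0.21, adjusted p 0.0688 by limma). With edgeR's quasi-likelihood test on the recovered reads, 22 members fell and 5 rose, where 13.8% of all genes fell and 11.5% rose.

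**Figure D5:**
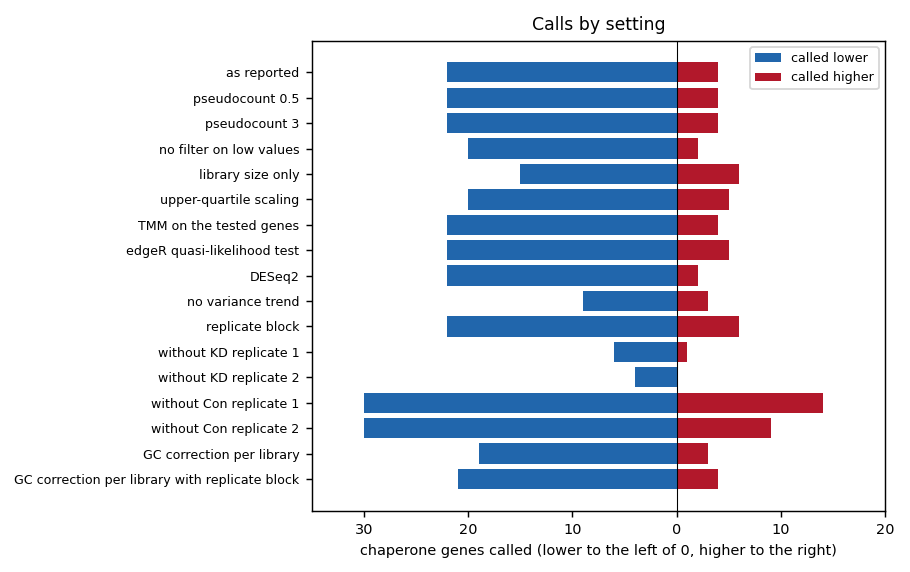
Number of members called lower and higher (horizontal axis) under each setting of the analysis (rows), with all 4 libraries or with 1 left out. The counts run from 4 to 30 lower and from 0 to 14 higher, and the extremes come from settings that leave out 1 library.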

How the data were processed

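Poly(A) RNA was sequenced from 4 libraries with single-end reads of 100 bp, per the labels' protocols. The submitters' processing notes list Bowtie2 2.3.4.3, SAMtools 1.9, HTSeq 0.11.2, edgeR 3.26.8 and build mm9, without roles; no annotation release or strand setting is stated there. Per sample, the table holds a deposited signal whose steps show counts scaled to an effective library size (CPM scale): each value is a whole number of reads within 0.001, for 100% of values. The authors' own comparison is deposited as log2 values (fold change and average CPM), a likelihood ratio as a score, and raw and adjusted p-values (p-value, FDR), per the file headers.

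Members, role classes and partner lists were chosen with earlier results of these data known. Groups come from the labels. limma 3.58.1 (R 4.3.3) with a variance trend was run on log2(normalized count + 1), so fold changes understate the change of low genes. Genes passing filterByExpr (edgeR 4.0.16) on the recovered reads, 14890 in all, were tested two-sided, with Benjamini-Hochberg adjustment and a threshold of 0.05. Values in every library are given for up to 6 called members per role class, for 14 further members fixed by name, and, in part as fold changes alone, for up to 4 called genes per partner list and direction; Hspa4l, Dnajb6, Dnajc2, Cct7, Hspb8, Cct6b, Dnajb2 and Cryab were added after their values were seen. 1 gene that this rule takes is not reported here. Alternatives were other pseudocounts, filters, scalings, a fit without the trend, edgeR and DESeq2 1.42.0 on recovered reads, a replicate block, single libraries left out and, chosen after seeing the data, a correction for GC content (lowess per library, span 0.3).

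GENCODE M21 (GRCm38) gave length, GC content, overlaps and coordinates for 32590 genes matched by ID, and RefSeq (GRCm38.p6) the promoters; nothing was converted between builds. Replicates were not duplicates (chi-square of reads per degree of freedom 2.00 for KD and 13.1 for Con). Depth ran from 4604200 to 13681765 reads, and floors of 3 reads cover counting error only. The fit was also run on simulated data with the same dispersion for every gene and library. Changes were put only into genes with many reads, so low genes and groups of unequal spread were not covered.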

Additional observations from a re-analysis of the deposited data

How the results depend on the processing

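Across the 49 genes taken by the naming rule, both other pseudocounts, edgeR and the replicate block kept every direction and call, although a pseudocount of 3 lowered the log2 change of Hspa1a and Hsf5 by over 1.5 times. Settings that took away calls were no filter (6), library size alone (11), upper-quartile scaling (5), DESeq2 (5), no variance trend (25), leaving out KD 1 (27) or KD 2 (34), the GC correction (8) and the GC correction with the replicate block (4). A fit without a KD library takes its spread from the Con pair alone, which lay farther apart, and a fit without a Con library from the KD pair alone. Library size alone moved the split of all calls to 996 lower and 2152 higher (68.4% higher), against 1851 lower and 1567 higher with the deposited scaling. Upper-quartile scaling gave 1329 lower and 1883 higher, and the fit without the variance trend 864 lower and 1068 higher. All-gene calls were also fewer without either KD library and more without either Con library.

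Members that fell numbered 9 without the variance trend and between 4 and 30 with 1 library left out, against 22. Members that rose numbered 2 with no filter, 2 by DESeq2 and between 0 and 14 with 1 library left out, against 4. The median log2 change of the members was -0.046 with library size alone, -0.075 with upper-quartile scaling, -0.18 by edgeR and between -0.20 and -0.12 with 1 library left out, against -0.13. CCT subunits that fell numbered 3 with library size alone, 0 without the trend (6 at an unadjusted p below 0.05 in limma, 6 by edgeR with adjustment) and between 0 and 8 with 1 library left out, against 6. Co-chaperones that fell numbered 2 with library size alone, 2 with upper-quartile scaling, 1 without the trend, 7 with the replicate block, 7 with the GC correction (Chordc1 and St13 not among them), 11 with both and between 0 and 18 with 1 library left out, against 4. Co-chaperones that rose numbered 0 without the trend (1 at an unadjusted p below 0.05 in limma, 1 by edgeR with adjustment) and between 0 and 2 with 1 library left out, against 1.

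Dnaja1, Dnajb1 and Hspa9, none with a call, changed sign. The log2 change of Dnaja1 ran from -0.0097 to 0.14 with 1 library left out, and it was negative without KD 2 or Con 1. Hspa9 stood at 0.016 with library size alone. Dnajb1 stood at 0.11 with library size alone, 0.060 with upper-quartile scaling, 0.0019 with TMM, 0.0038 by DESeq2 and between -0.092 and 0.075 with 1 library left out. The cause was not tested. Replicate numbers were not treated as pairs, since the labels tie them to no shared source. Deviations of same-numbered libraries correlated at 0.0356. With 2 libraries in each group, this value cannot show whether same-numbered libraries were prepared together. With the replicate block 22 members fell and 6 rose, 6 CCT subunits fell, and the all-gene calls were 2380 lower and 2252 higher. At Con 2's depth 3 reads equal 0.679 normalized counts, which limits the precision of genes near that level.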
